A study of Mus musculus with 9 samples.

Results

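Of 27719 genes in the count table of the mouse colon, 9 were examined together: the cytokine gene *Il19* and 8 genes that encode receptor chains of the interleukin-10 (IL-10) and interleukin-17 (IL-17) families. They were taken by symbol, and all 9 were found: *Il19*, *Il20ra*, *Il20rb*, *Il22ra1*, *Il10ra*, *Il10rb*, *Il17ra*, *Il17rc* and *Il17re*. Colon RNA of 9 C57BL/6J mice was sequenced as cDNA on a Nanopore instrument, with 3 mice in each of 3 groups and 1 library per mouse. The control group drank distilled water, and the DSS group drank 2.5% dextran sodium sulfate (DSS), which injures the colon epithelium, for 7 days. The DSS + EA group drank the same DSS and, after 5 days of modeling, received electroacupuncture (EA) at both ST36 points once a day for 5 days, each time for 30 minutes at 2 Hz and 0.2 mA. Control and DSS mice were held in the frame for the same 30 minutes without EA, and a group with needles but no current is not described. Whether the DSS mice were killed on the same day as the DSS + EA mice is not given in the sources used here, so in comparisons of these groups EA cannot be told apart from any difference in time since DSS. The libraries came from separate mice, so the SDs and standard errors given here are between animals, while counting intervals do not include that spread.

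Cytokines of the IL-10 family bind receptors made of a pair of unlike chains that activate Janus kinases and STAT proteins. IL-10 binds IL-10RA with IL-10RB and is known for restraining myeloid cells in the gut, IL-22 binds IL-22RA1 with the same IL-10RB on epithelial cells, and IL-19 binds IL-20RA with IL-20RB. Cytokines of the IL-17 family share the chain IL-17RA, which pairs with IL-17RC for IL-17A and IL-17F, with IL-17RE for IL-17C and with IL-17RB for IL-25, and these receptors signal through the adaptor Act1 to NF-kB.

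Between 2627695 and 4235576 reads were counted per mouse, and levels are given as CPM, the reads of a gene per 1000000 reads of a library total adjusted by the TMM method. Nothing in the counts separates PCR copies from independent molecules, so floors and counting intervals cover counting error only. Markers of epithelium and of colon identity were present in every mouse. DSS mouse 1 stood apart from the other DSS mice, with summed neutrophil markers of 4499 CPM against 23420 and 27090 CPM. Markers of pancreatic acinar cells reached 256.4, 20080 and 10160 CPM in the DSS + EA mice and no more than 2.87 CPM in the other 6 mice, and their part in the results was not tested. In bulk tissue, fewer cells of a type and less RNA per cell cannot be told apart.

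Of the 9 genes, 6 had enough reads to be tested, and *Il20ra*, *Il20rb* and *Il22ra1* did not. Compared with the control group, *Il19*, *Il10ra* and *Il17ra* rose and *Il17rc* and *Il17re* fell in the DSS group. In the DSS + EA group these 5 genes moved the other way, with *Il17rc* and *Il17re* higher and *Il19*, *Il10ra* and *Il17ra* lower than in the DSS group. *Il10rb* passed the test in neither comparison. Thus 5 of the 6 genes tested were called with DSS at an adjusted p under 0.05 (edgeR's quasi-likelihood test with Benjamini-Hochberg adjustment over 12566 genes), where 40.9% of all genes tested were called, 21.5% as higher and 19.5% as lower. With EA against DSS, 5 of 6 were called, against 35.5% of all genes, 17.2% as higher and 18.3% as lower. One of the 5 in each comparison was *Il19*, which reached the level the filter on low counts asks for in DSS mice alone, so that its difference was a condition of its being tested. Without it 4 of 5 genes were called in each comparison. The 3 DSS mice enter both comparisons, so opposite directions in them are not independent. Among the genes tested the groups did not overlap for 6 of 6 in either comparison, and without *Il19* for 5 of 5, against 52.0% of all genes with DSS and 47.4% with EA. With EA these counts include *Il10rb*, whose separation depends on how libraries are scaled. DSS mouse 3 had 38.39 CPM of it from 124 reads, and DSS + EA mouse 3 had 38.4 CPM from 122 reads. By the rule of the study (a log2 fold change beyond 2.5 and an unadjusted P under 0.01), 5 genes were called with DSS and 2, *Il19* and *Il17ra*, with EA, against 10.2% and 6.41% of all genes. Without DSS mouse 1 the counts at an adjusted p under 0.05 were 5 in each comparison.

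**Figure D1:**
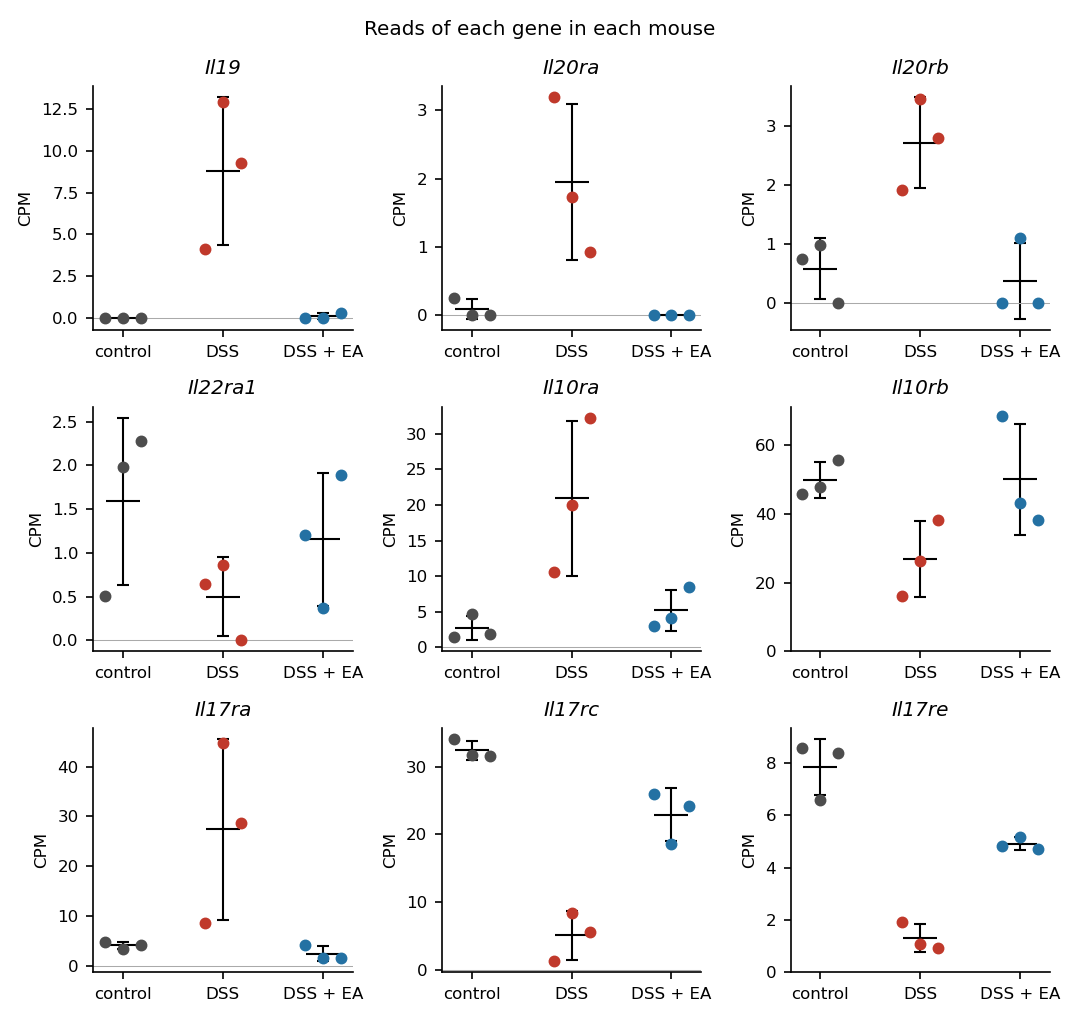
Each panel plots the CPM of 1 gene (vertical axis, each with its own scale) in the control, DSS and DSS + EA mice. Points are mice in the order of their numbers, and bars are the mean and SD of 3 mice. *Il19*, *Il20ra*, *Il20rb*, *Il10ra* and *Il17ra* were higher in every DSS mouse than in any control mouse, *Il10rb*, *Il17rc* and *Il17re* were lower, and the *Il22ra1* groups overlapped.

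*Il19* encodes IL-19, a cytokine of myeloid and epithelial cells in the IL-10 family. The gene (ENSMUSG00000016524) lies on the minus strand at chr1:130932656-130940115 (GRCm38), and its promoter window is given with that of *Il20ra* (chr10:19712570-19760053, plus strand), a chain of its receptor, because both genes had reads mainly in DSS mice. The windows hold 250 bases before and 50 bases after the start in RefSeq (GRCm38.p6), at chr1:130940066-130940365 on the minus strand and chr10:19712337-19712636 on the plus strand. Capitals mark the STAT motif TTCNNNGAA in *Il19* and the AP-1 motif TGANTCA in *Il20ra*.
Il19: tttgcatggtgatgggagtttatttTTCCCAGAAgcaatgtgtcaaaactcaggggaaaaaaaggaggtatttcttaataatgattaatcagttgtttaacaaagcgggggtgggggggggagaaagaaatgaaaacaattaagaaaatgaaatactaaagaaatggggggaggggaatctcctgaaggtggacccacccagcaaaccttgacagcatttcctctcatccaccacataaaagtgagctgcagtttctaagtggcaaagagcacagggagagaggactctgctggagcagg
Il20ra: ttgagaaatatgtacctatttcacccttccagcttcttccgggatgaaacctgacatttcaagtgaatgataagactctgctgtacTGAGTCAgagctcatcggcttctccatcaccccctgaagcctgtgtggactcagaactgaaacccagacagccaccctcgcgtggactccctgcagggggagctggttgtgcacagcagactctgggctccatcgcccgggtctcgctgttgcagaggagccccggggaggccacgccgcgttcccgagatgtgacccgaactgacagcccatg
The motifs searched on both strands were STAT (TTCNNNGAA, in 8.3% of 32851 promoter windows), NF-kB (GGGA, any base, TT, any base, CC, in 1.2%), AP-1 (TGANTCA, 7.81%) and C/EBP (TTGCNNAA, 10.8%). The match in *Il19* was TTCCCAGAA, 225 bases before the start, and that in *Il20ra* was TGAGTCA, 164 bases before it. Among the other windows, *Il22ra1* held an AP-1 match 222 bases before the start and *Il20rb* a C/EBP match 78 bases before it. Windows were at hand for 6 of the 9 genes, and a match is only a description of the letters.

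*Il19* had 0 reads in each control mouse, 13, 60 and 30 reads in DSS mice 1, 2 and 3, and 0, 0 and 1 reads in the DSS + EA mice. All DSS mice therefore stood above every other mouse, at 4.15, 12.9 and 9.29 CPM. The group mean of 8.79 ± 4.41 CPM (SD, n = 3) with DSS was at least 9.14-fold higher than in the control group, where the bound rests on a floor of 3 counts per library (adjusted p = 0.000987, edgeR). With EA the level was 0.0116 times that of the DSS group (95% counting interval 0.000292 to 0.0662), with an adjusted p of 0.00217 by edgeR's quasi-likelihood test.

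The receptor chains for IL-19 were near the limit of detection. *Il20ra*, the chain that pairs with IL-20RB for IL-19, had 10, 8 and 3 reads in the DSS mice, 1, 0 and 0 in the control mice and 0 in each DSS + EA mouse. *Il20rb* (chr9:100457719-100486788, minus strand), its partner chain, had 6, 16 and 9 reads in the DSS mice, 3, 3 and 0 in the control mice and 0, 3 and 0 in the DSS + EA mice. For both genes each DSS mouse had more reads than any control or DSS + EA mouse. Summed over mice and scaled, the *Il20ra* level with DSS was 18.4 times that of the control group (95% counting interval 2.96 to 760.0), and with EA it was at least 1.97-fold lower than with DSS. For *Il20rb* the ratio was 4.52 with DSS against control (1.86 to 13.3) and 0.116 with EA against DSS (0.0227 to 0.372). In a fit without the filter, *Il20ra* had an adjusted p of 0.0219 with DSS and 0.0124 with EA (edgeR). In that fit *Il20rb* had 0.0856 and 0.0452. These calls did not all hold in DESeq2, where *Il20ra* was called with EA (adjusted p = 0.0187) but not with DSS (0.0544), and *Il20rb* in neither comparison (0.132 with DSS and 0.0611 with EA).

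*Il22ra1* (chr4:135728172-135752140, plus strand), the epithelial chain of the IL-22 receptor, had 2, 6 and 6 reads in the control mice, 2, 4 and 0 in the DSS mice and 4, 1 and 6 in the DSS + EA mice. The groups overlapped, at 1.59 ± 0.951, 0.50 ± 0.45 and 1.16 ± 0.760 CPM (SD, n = 3). A change was not detectable at this depth: the ratio of DSS to control was 0.375 with a 95% counting interval of 0.118 to 1.04, and the fit without the filter gave adjusted p = 0.232 (edgeR).

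*Il10ra* (chr9:45253837-45269149, minus strand) encodes the chain that binds IL-10 itself and is found mainly on leukocytes. It had 1.51, 4.62 and 1.90 CPM in the control mice, 10.5, 20.05 and 32.2 CPM in the DSS mice and 3.02, 4.07 and 8.50 CPM in the DSS + EA mice. The lowest DSS mouse lay above the highest mouse of both other groups. The log2 fold change with DSS was 2.97 (SE 0.57, adjusted p = 0.00294, edgeR), from 2.68 ± 1.69 to 20.9 ± 10.9 CPM. With EA it fell by 2.00 on the log2 scale against DSS (SE 0.53, adjusted p = 0.0163, edgeR), to 5.20 ± 2.91 CPM. This second call was lost without DSS + EA mouse 1 (adjusted p = 0.0596, edgeR) or mouse 2 (0.0588).

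*Il10rb* (chr16:91406164-91425834, plus strand) encodes the chain shared by the receptors of IL-10, IL-22 and the interferon lambdas. It had 45.9, 47.8 and 55.9 CPM in the control mice, 16.3, 26.3 and 38.4 CPM in the DSS mice and 68.6, 43.3 and 38.4 CPM in the DSS + EA mice. Every DSS mouse lay below every control mouse, while DSS mouse 3 and DSS + EA mouse 3 had nearly the same level. The log2 differences were -0.88 with DSS (SE 0.32) and 0.89 with EA against DSS (SE 0.32), and neither passed the test in edgeR (adjusted p = 0.0507 and 0.0542). Without DSS mouse 3 both passed (log2 -1.21, adjusted p = 0.0160, and 1.19, adjusted p = 0.0209, edgeR). The gene *Gm21970* overlaps *Il10rb* on the same strand and was listed at 0 in every mouse. *Ifnar2* ends 574 bases before *Il10rb* on the same strand. It had 76, 56 and 51 reads in the control mice, 29, 412 and 493 in the DSS mice and 84, 18 and 61 in the DSS + EA mice. Whether any of its reads were assigned to *Il10rb* was not tested.

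*Il17re* (chr6:113458484-113470758) and *Il17rc* (chr6:113471427-113483140) lie in a row on the plus strand with 668 bases between them, and both encode chains that pair with IL-17RA. Their promoter windows are shown because the genes fell together with DSS, and neither held a match to the motifs searched. They cover chr6:113458521-113458820 and chr6:113471205-113471504 (GRCm38.p6), and the second begins after the end of *Il17re*. The first lies wholly inside *Il17re* as GENCODE places it, because the RefSeq start is further along. Bases before the GENCODE start of *Il17re* were thus not searched.
Il17re: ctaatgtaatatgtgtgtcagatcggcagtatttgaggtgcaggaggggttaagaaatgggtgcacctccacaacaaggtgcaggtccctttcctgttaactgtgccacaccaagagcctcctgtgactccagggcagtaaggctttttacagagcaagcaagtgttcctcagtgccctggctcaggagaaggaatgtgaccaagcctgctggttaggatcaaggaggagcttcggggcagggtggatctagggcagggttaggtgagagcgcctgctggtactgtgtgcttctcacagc
Il17rc: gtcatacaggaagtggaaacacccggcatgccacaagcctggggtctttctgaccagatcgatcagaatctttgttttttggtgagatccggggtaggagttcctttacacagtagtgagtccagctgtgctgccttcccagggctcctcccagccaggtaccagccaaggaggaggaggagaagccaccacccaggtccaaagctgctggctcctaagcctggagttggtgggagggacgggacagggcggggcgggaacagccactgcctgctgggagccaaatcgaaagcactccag
The authors' way of assigning reads to neighbouring genes is not given in the sources used here. *Creld1*, which begins 156 bases after *Il17rc*, had 10 to 15 reads in the control mice and 6 to 20 in the DSS mice.

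*Il17rc*, the partner chain for IL-17A and IL-17F, had 34.0, 31.7 and 31.6 CPM in the control mice. It had 1.28, 8.41 and 5.57 CPM in the DSS mice and 26.0, 18.5 and 24.2 CPM in the DSS + EA mice. The 3 groups did not overlap, with the DSS mice lowest and the control mice highest. *Il17rc* was 6.14-fold lower with DSS (log2 fold change -2.62, SE 0.45, adjusted p = 0.00154, edgeR), from 32.4 ± 1.40 to 5.09 ± 3.59 CPM. It was 4.35-fold higher with EA than with DSS (log2 fold change 2.12, SE 0.45, adjusted p = 0.00615, edgeR), at 22.9 ± 3.90 CPM. Without DSS mouse 1, which had 4 reads, the log2 fold change with DSS was -2.22 and still called.

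*Il17re*, the partner chain for IL-17C and a receptor of epithelial cells, followed the same order. It had 8.57, 6.598 and 8.36 CPM in the control mice, 1.91, 1.08 and 0.929 CPM in the DSS mice and 4.83, 5.19 and 4.72 CPM in the DSS + EA mice. No 2 groups overlapped, and the DSS mice had no more than 6 reads each. The log2 fold change was -2.58 with DSS (SE 0.35, adjusted p = 0.000472, edgeR) and 1.90 with EA against DSS (SE 0.36, adjusted p = 0.00384, edgeR).

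*Il17ra* (chr6:120463247-120487559, plus strand), the chain that all these receptors share and that leukocytes also carry, went the opposite way. It had 4.79, 3.30 and 4.18 CPM in the control mice, 8.62, 44.8 and 28.8 CPM in the DSS mice and 4.23, 1.48 and 1.57 CPM in the DSS + EA mice. DSS mouse 1 was well below the other DSS mice and still above every control and DSS + EA mouse. The log2 fold change with DSS was 2.74 (SE 0.58, adjusted p = 0.00466, edgeR), and it was 3.13 without DSS mouse 1. With EA *Il17ra* was 11.0-fold lower than with DSS (log2 fold change -3.46, SE 0.62, adjusted p = 0.00290, edgeR).

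**Figure D2:**
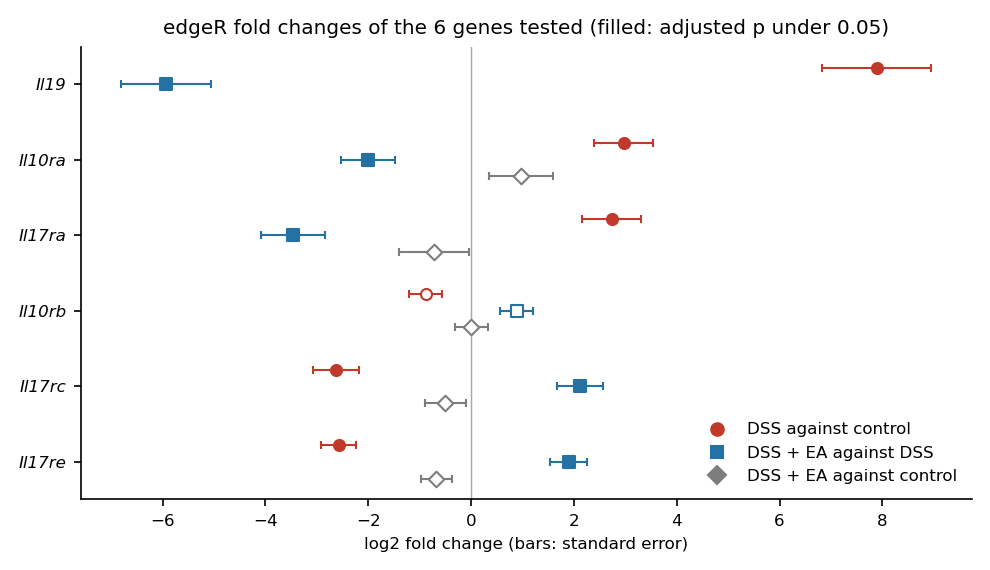
The horizontal axis gives log2 fold changes of the 6 genes tested (vertical axis), with bars of 1 standard error; circles are DSS against control, squares DSS + EA against DSS and diamonds DSS + EA against control, and filled symbols have an adjusted p under 0.05. *Il19*, *Il10ra* and *Il17ra* have filled circles to the right of 0 and filled squares to the left, *Il17rc* and *Il17re* the reverse, and no diamond is filled. The values of *Il19* depend on the prior count because its control mice had no reads, and its comparison of DSS + EA with control is not drawn.

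No gene of the 6 tested was called between the DSS + EA and control groups by edgeR, where 3.64% of all genes were called, and DESeq2 called 0 as well. At an unadjusted p under 0.05 there was 1 gene in edgeR, *Il17re*, and 0 in DESeq2. Its log2 difference was -0.67 (SE 0.30, adjusted p = 0.291, edgeR), at 4.91 ± 0.243 against 7.84 ± 1.08 CPM (SD, n = 3). *Il17rc* also lay below every control mouse in every DSS + EA mouse (log2 -0.50, SE 0.40, adjusted p = 0.585, edgeR). These were 2 genes of 6 whose DSS + EA mice all lay below the control mice, against 14.2% of all genes. The levels of *Il10ra* (log2 0.97, SE 0.62), *Il17ra* (-0.73, SE 0.68) and *Il10rb* (0.01, SE 0.32) overlapped between these groups. A p that misses the threshold with 3 mice a group does not show that the groups were alike.

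Ratios of receptor partners within a mouse do not depend on how libraries are scaled. *Il17rc* reads exceeded *Il17ra* reads in every control mouse, with log2 ratios of 2.80, 3.20 and 2.86, and in every DSS + EA mouse, with 2.58, 3.49 and 3.82. In the DSS mice the ratios were -2.61, -2.40 and -2.34, so that *Il17ra* reads exceeded *Il17rc* reads in each of them. DSS mouse 1 did not stand apart in this measure, although it had the fewest reads of both genes among the DSS mice. The mean ratio was 42.3-fold lower with DSS than in the control group and 53.6-fold higher with EA than with DSS (exact two-sided permutation test, p = 0.1 for both, the smallest p that 3 against 3 allows). The summed reads of *Il17rc* were 7.85 times those of *Il17ra* in the control group, 0.186 times in the DSS group and 9.26 times in the DSS + EA group. Per kilobase of the longest coding transcript in GENCODE they were 26.4, 0.626 and 31.2 times. Values per kilobase assume that longer transcripts give more reads, which was not tested for these Nanopore reads.

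The ratio of *Il17re* to *Il17ra* had the same order of groups. The log2 ratios were 0.823, 0.965 and 0.968 in the control mice, -2.08, -5.24 and -4.74 in the DSS mice and 0.186, 1.69 and 1.495 in the DSS + EA mice. Its mean was 30.7-fold lower with DSS and 35.4-fold higher with EA against DSS (exact two-sided permutation p = 0.1 for both). The summed *Il17re* reads were 1.90, 0.0427 and 1.96 times those of *Il17ra* in control, DSS and DSS + EA mice. Per kilobase they were 5.01, 0.113 and 5.16 times. For the IL-10 receptor, the log2 ratio of *Il10ra* to *Il10rb* was -4.81, -3.33 and -4.75 in the control mice, -0.62, -0.39 and -0.25 in the DSS mice and -4.44, -3.35 and -2.16 in the DSS + EA mice. The ligand-binding chain thus had the fewer reads of the pair in every mouse, by the least in the DSS mice. The summed reads of *Il10ra* were 0.0527, 0.774 and 0.103 times those of *Il10rb* in the 3 groups, and per kilobase 0.0279, 0.410 and 0.0545 times. The mean ratio within a mouse was 14.7-fold higher with DSS and 7.43-fold lower with EA against DSS (exact permutation p = 0.1 for both). The ratios of *Il22ra1* to *Il10rb* and of *Il20ra* to *Il20rb* overlapped between all groups. The ratio of *Il22ra1* to *Il20rb*, a pair that binds IL-20 and IL-24, was 14.6-fold lower with DSS and 20.9-fold higher with EA against DSS (exact permutation p = 0.1 for both), on counts between 0 and 16. Between the DSS + EA and control groups all 6 ratios overlapped, with exact permutation p between 0.3 and 1.0.

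**Figure D3:**
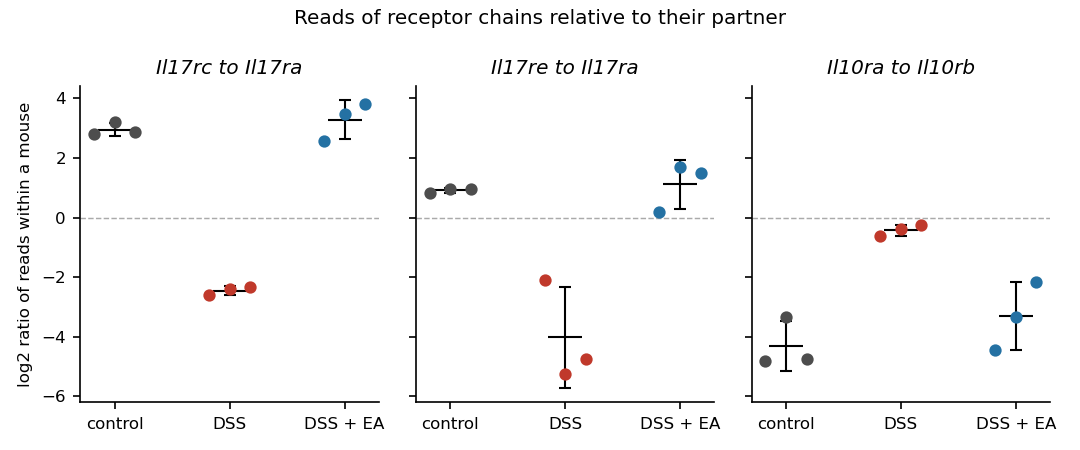
The vertical axis is the log2 ratio of the reads of 2 receptor chains within a mouse, with 0.5 added to each count, for the control, DSS and DSS + EA mice; points are mice, bars the mean and SD of 3 mice, and the dashed line marks equal reads. The *Il17rc* to *Il17ra* ratios lie between 2.58 and 3.82 in control and DSS + EA mice and between -2.61 and -2.34 in DSS mice.

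Cell type markers moved with the receptors. The summed level of 7 epithelial markers was 3824 to 4954 CPM in the control mice, 765.1 to 3110 in the DSS mice and 3400 to 4883 in the DSS + EA mice, and 3 of the 7 (*Krt20*, *Vil1* and *Cldn7*) fell with DSS and rose with EA against DSS, while 4 were not called. Of 10 neutrophil markers 9 were tested, and 9 rose in the DSS group while 7 fell with EA against DSS. The sum of the 10 was 23.57 to 159.3 CPM in control, 4499 to 27090 in DSS and 1215 to 1597 in DSS + EA mice. Of 8 macrophage markers, 7 rose with DSS and 5 fell with EA, with sums of 406.8 to 425.2, 1249 to 2510 and 822 to 905.1 CPM. Markers of other cell types moved as well. All 5 fibroblast markers rose with DSS and 3 (*Col1a2*, *Pdgfra* and *Dcn*) fell with EA against DSS, with sums of 396.6 to 445.7 CPM in control, 2750 to 3593 in DSS and 868.2 to 975 in DSS + EA mice. Of 4 endothelial markers 3 (*Pecam1*, *Cdh5* and *Vwf*) rose with DSS and fell with EA, with sums of 25.09 to 29.25, 66.38 to 96.58 and 27.41 to 30.53 CPM. Of 6 genes of colon identity 5 fell with DSS, and *Car1* and *Slc26a3* were among those that rose with EA, with sums of 6464 to 22420, 661 to 3317 and 3310 to 10670 CPM. Of 4 smooth muscle markers 3 fell with DSS and none was called with EA, and of 3 T cell markers tested none was called. Of 3 B cell and plasma cell markers tested, *Jchain* fell with DSS and *Ms4a1* rose with EA. Among all genes tested 21.5% rose and 19.5% fell with DSS, and 17.2% rose and 18.3% fell with EA against DSS. No listed marker in the table was at 0 in every mouse. The part of cell composition in the receptor changes was not tested.

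Per 1000 epithelial marker reads, a measure added after the levels were seen, *Il17rc* had 8.04, 8.28 and 6.37 reads in the control mice, 0.411, 4.73 and 7.29 in the DSS mice and 5.32, 5.45 and 5.88 in the DSS + EA mice. On this scale the DSS and control groups overlapped for *Il17rc*. DSS mouse 1 had the most epithelial marker reads of the DSS mice and the fewest *Il17rc* reads. *Il17re* kept the groups apart on the same scale, with 1.69 to 2.03 reads in control and 0.607 to 1.21 in DSS mice, although the DSS + EA mice (0.990 to 1.53) overlapped the DSS mice. *Il10rb* had 10.8 to 12.5 reads per 1000 epithelial marker reads in control and 5.23 to 50.2 in DSS mice. Per 1000 macrophage marker reads, *Il10ra* had 3.59 to 10.9 in control, 8.43 to 13.8 in DSS and 3.48 to 9.39 reads in DSS + EA mice, and all of these ranges overlapped. *Il17ra* likewise overlapped between control and DSS mice per 1000 macrophage marker reads, at 7.76 to 11.4 and 6.90 to 30.8, but the DSS + EA mice lay below both groups at 1.74 to 4.87. Per 1000 neutrophil marker reads both genes were instead highest in the control mice, whose neutrophil markers were low. On that scale *Il17ra* had 20.7 to 177 reads in control, 1.06 to 1.92 in DSS and 0.985 to 2.83 in DSS + EA mice, and *Il10ra* had 11.3 to 80.7, 0.856 to 2.34 and 2.02 to 5.32, so that the DSS and DSS + EA mice overlapped for both. The neutrophil marker sum was mostly *Ly6g* in control mice (mean 97.18 of 105.7 CPM) and mostly *S100a8* in DSS mice (12140 of 18340 CPM). Its make-up thus differed between groups.

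**Figure D4:**
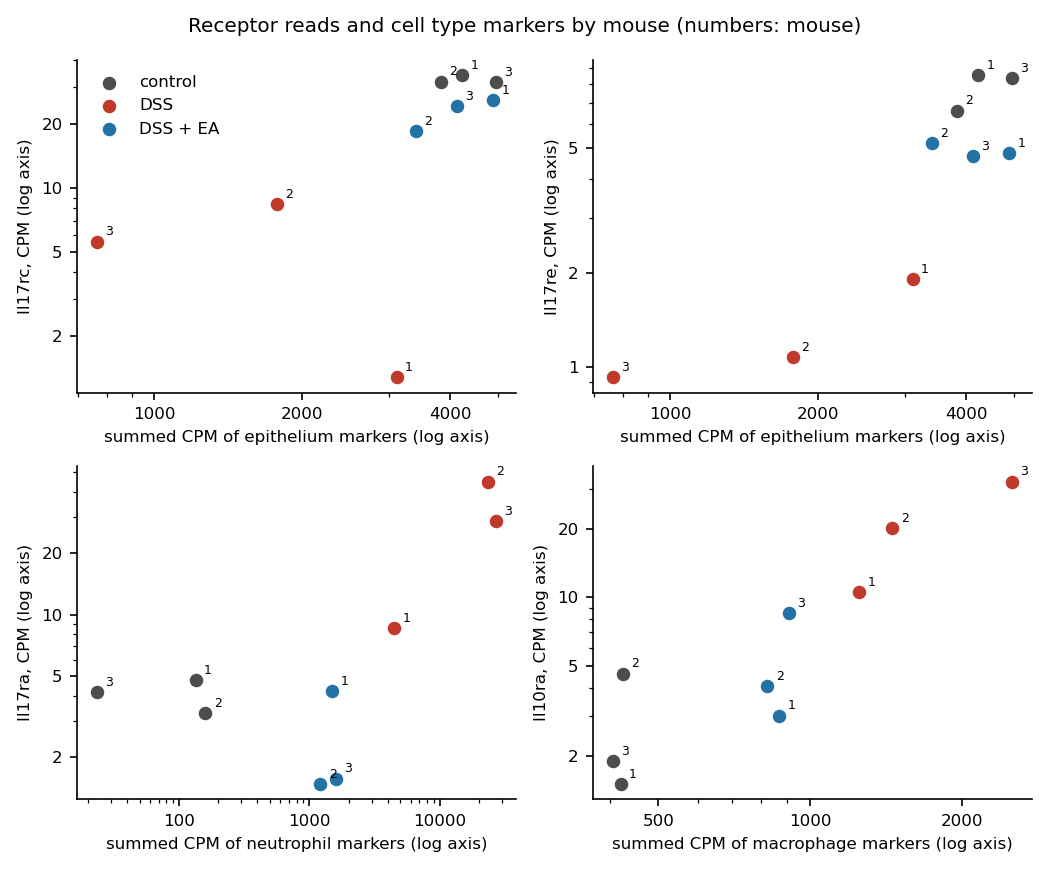
Each point is a mouse, with its number; the vertical axis is the CPM of *Il17rc*, *Il17re*, *Il17ra* or *Il10ra* and the horizontal axis the summed CPM of epithelial, neutrophil or macrophage markers, all on log axes. DSS mouse 1 has 3110 CPM of epithelial markers beside 1.28 CPM of *Il17rc*, away from the control and DSS + EA mice, and the *Il17ra* level of the DSS + EA mice lies within or below the range of the control mice although their neutrophil markers are higher.

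The ligands of these receptors were sparse, and of 8 IL-10 family and 6 IL-17 family ligand genes in the table only *Il19* passed the filter. *Il10* had 0 to 1 reads in the control mice, 8 to 30 in the DSS mice and 2 to 3 in the DSS + EA mice, a ratio of 56.9 with DSS (95% counting interval 9.86 to 2281) and of 0.129 with EA against DSS (0.0499 to 0.281). *Il10* and its binding chain *Il10ra* were thus both highest in the DSS mice. *Il22* had 0 reads in each control mouse, 0 to 64 in the DSS mice and 3 to 7 in the DSS + EA mice. *Il17f* had 0 to 1, 0 to 25 and 1 to 10 reads, and *Il17a* no more than 1 read in any mouse. For both *Il22* and *Il17f* the DSS and DSS + EA mice overlapped. *Il17c*, the ligand of IL-17RE, and *Il20* were listed at 0 in every mouse, which allows up to 0.708 to 1.14 CPM by the floor of 3 counts.

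Genes of the pathways downstream were counted from 10 lists of 97 genes, of which 64 were tested. The lists share some genes, and the receptors above are among them. *Cebpb*, *Csf3* and *Il6*, like *Il19*, had no more than 8 reads in any mouse outside the DSS group. They passed the filter through the DSS mice, so that their difference was a condition of their being tested. The counts were not recomputed without such genes. With DSS 36 of the 64 rose and 8 fell (edgeR's quasi-likelihood test, adjusted p under 0.05), where 21.5% of all genes tested rose and 19.5% fell. With EA against DSS 9 rose and 31 fell, where 17.2% of all genes rose and 18.3% fell. In the DSS + EA against the control group 14 rose and 0 fell, where 3.0% of all genes rose.

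Among Janus kinase and STAT genes, 3 of 9 tested rose with DSS, a count little above the 21.5% of all genes that rose. *Socs3*, a feedback inhibitor induced by STAT3, rose most (log2 fold change 4.38, SE 0.48, adjusted p = 0.000170, edgeR), and *Stat3* (1.94) and the kinase gene *Jak2* (1.58) rose too. *Tyk2*, the kinase that binds IL-10RB, fell by 0.87 on the log2 scale. With EA against DSS *Tyk2* rose by 0.90 and *Jak2*, *Socs3* and *Stat3* fell by 1.77, 1.62 and 1.52 on the log2 scale. In the DSS + EA group *Socs3* stayed above the control group (2.76). The median log2 fold change of the list was 0.22 with DSS and -0.82 with EA, beside 0.02 and -0.02 for all genes tested.

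Of the adaptors and feedback regulators of the IL-17 receptors, 11 of 16 tested rose with DSS and none fell, where 21.5% of all genes rose and 19.5% fell. *Cebpb*, a transcription factor of IL-17 responses, rose most (log2 3.99, SE 0.67), followed by *Nfkbia* (3.46), which encodes the inhibitor of NF-kB, *Cebpd* (3.23) and *Tnfaip3* (2.65), a feedback inhibitor. Of the 16, 10 fell with EA against DSS, with *Cebpb* at -3.16 and *Nfkbia* at -2.42, and none rose. Among all genes 18.3% fell and 17.2% rose with EA. *Traf3ip2*, which encodes Act1, the adaptor that binds the receptors directly, was at 0.08 (adjusted p = 0.815) with DSS and -0.13 (adjusted p = 0.713) with EA in edgeR. None of the 16 was called between DSS + EA and control, where the largest difference was that of *Tnfaip3* (log2 1.07, adjusted p = 0.0834, edgeR). The medians of the list were 1.34, -1.03 and 0.53.

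**Figure D5:**
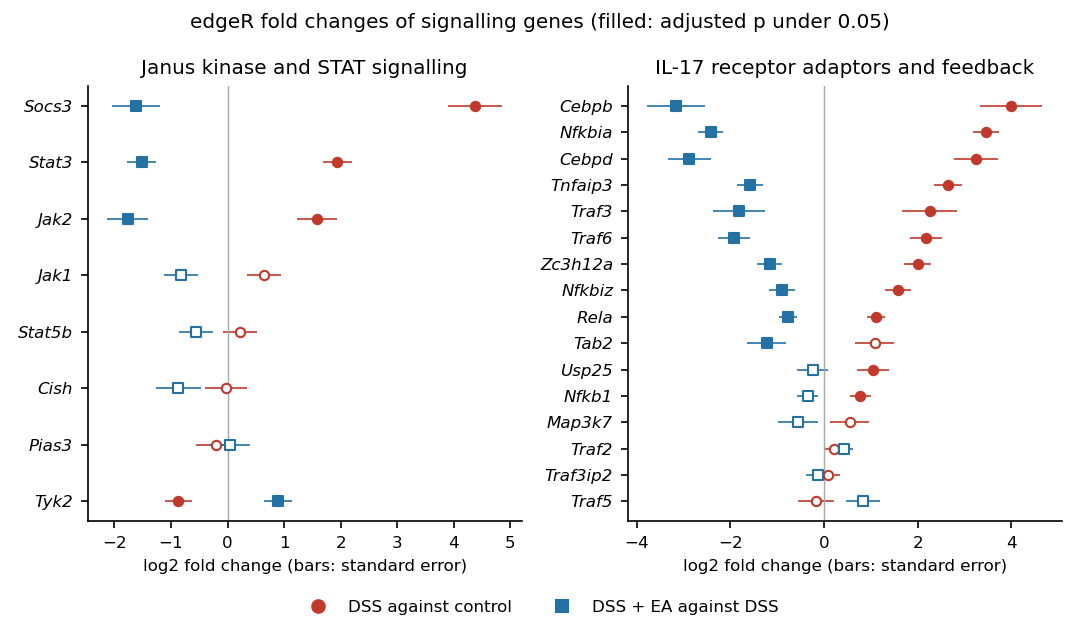
Log2 fold changes (horizontal axes, bars of 1 standard error) of tested Janus kinase and STAT genes (left) and of IL-17 receptor adaptors and feedback genes (right), listed on the vertical axes; circles are DSS against control, squares DSS + EA against DSS, and filled symbols have an adjusted p under 0.05. *Socs3*, *Stat3* and *Jak2* have filled circles right of 0 and filled squares left of it, *Tyk2* the reverse, and 11 adaptor and feedback genes have filled circles, all right of 0.

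Genes known to respond to IL-17 were the list with the most calls. Of 13 tested, 11 rose with DSS and 2 fell, and with EA against DSS 10 fell and 1 rose. Among all genes tested 21.5% rose and 19.5% fell with DSS, and 18.3% fell and 17.2% rose with EA. *Csf3*, which encodes the granulocyte growth factor G-CSF, had 0 reads in each control mouse and 495 to 1255 with DSS (at least 222.7-fold more), and fell by 6.67 on the log2 scale with EA (adjusted p = 0.000110, edgeR). The epithelial genes *Nox1*, an NADPH oxidase, and *Pigr*, the carrier of secreted IgA, fell with DSS by 2.09 and 2.05 on the log2 scale, against the direction of the other 11. *Nox1* rose by 2.69 with EA against DSS, and *Pigr* was at 1.48 (adjusted p = 0.0751, edgeR). In the DSS + EA group 8 of the 13 stayed above control, led by the chemokine gene *Cxcl2*, at 397.1 times the control level (95% counting interval 109.6 to 3285).

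Epithelial genes known to respond to IL-22 were split. Of 12 tested, 5 rose with DSS (*Saa2*, *Lcn2*, *S100a8*, *S100a9* and *Socs3*) and 1 fell, *Fut2*, a fucosyltransferase (log2 -1.72, adjusted p = 0.00605, edgeR). Among all genes tested 21.5% rose and 19.5% fell with DSS, and 17.2% rose and 18.3% fell with EA against DSS. *S100a8* and *S100a9* are abundant in neutrophils and stand also in the neutrophil marker list, and *S100a9* with DSS was at 11090 times the control level (95% counting interval 3794 to 53780). With EA against DSS *Saa1*, *Fut2* and *Muc1* rose, *Fut2* most (log2 2.60), while *Lcn2*, *S100a8*, *S100a9* and *Socs3* fell, *S100a8* most (-4.65). The antimicrobial lectin genes *Reg3b* and *Reg3g* were not called in any comparison (log2 3.38 and 3.49 with DSS, adjusted p = 0.181 and 0.156, edgeR). Both were still higher in every DSS + EA mouse than in any control mouse (log2 5.15 and 5.01, adjusted p = 0.239 and 0.232, edgeR). *Reg3b* reads ran from 100 to 2936 among the control mice, from 83 to 41783 among the DSS mice and from 27857 to 75698 among the DSS + EA mice.

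Of 9 genes known to respond to IL-10 in myeloid cells, 6 rose with DSS, led by *Socs3* and followed by the scavenger receptor gene *Cd163* (log2 3.96), *Il4ra* (3.42) and *Nfil3* (3.17), and none fell. With EA against DSS 5 of them fell, *Nfil3* most (-3.37), and *Il1rn* was at -0.85 (adjusted p = 0.201, edgeR). Among all genes tested 21.5% rose with DSS and 18.3% fell with EA. *Socs3* and *Il4ra* (1.32) stayed above the control group with EA. The medians of this list were 2.62, -1.49 and 0.80, beside a median near 0 for all genes.

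The genes whose log2 CPM most resembled each member over the 9 libraries, of 11181 genes compared, are given as a description, since all points share the 3 groups. *Il19* was closest to *Sprr2d*, a small proline-rich protein of stressed epithelium (Pearson r = 0.991, 9 libraries), and to *Mmp14* (0.988), a membrane metalloprotease. *Il17ra* was closest to *Furin* (0.986), a proprotein convertase, and *Tanc1* (0.986). *Il17rc* was closest to *Mon1a* (0.988) and *Tradd* (0.987), the adaptor of a TNF receptor, and its neighbour *Il17re* to *Hook2* (0.996) and *Alkbh7* (0.994). For *Il10ra* the closest were *Nip7* (0.975) and *C9orf72* (0.972), and for *Il10rb* they were *Usp21* (0.965) and *Tubgcp4* (0.965). Among the members themselves, *Il17rc* and *Il17re* had r = 0.806, *Il17rc* and *Il10rb* 0.87, *Il19* and *Il17ra* 0.905 and *Il19* and *Il17re* -0.964.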

How the data were processed

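Colon RNA of the 9 mice was made into cDNA and sequenced by Nanopore. The authors deposited raw counts of reads for each gene; the submitters' processing notes name the build mm10, and the aligner, counting tool, annotation and use of strand are not given in the sources used here, so reads of overlapping or near-identical genes could have been divided. Of 27733 lines in the table, 14 held no counts and were skipped. Totals per mouse lay between 2627695 and 4235576 counts, so 3 counts, the floor for lower bounds, were 0.708 to 1.14 CPM.

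The test was that of edgeR 4.0.16 in R 4.3.3 (TMM, filterByExpr by group, prior count 0.125, quasi-likelihood F test, Benjamini-Hochberg adjustment over 12566 genes, called at an adjusted p under 0.05), in one fit over 9 libraries with group as the only term. Standard errors are the log2 fold change divided by the square root of the F statistic. Ratios within a mouse had 0.5 added to each count and were compared with exact two-sided permutation tests (scipy 1.17.1). Ratios of summed counts have exact 95% counting intervals. The fits were tested on simulated data. Positions are from GENCODE M21 (GRCm38), and promoter windows, found for 6 of the 9 genes, from RefSeq (GRCm38.p6).

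The 9 genes, the pathway and marker lists and the tests were chosen with earlier results of these data known. The text names all 9 genes, genes of the pathway lists with at least the called gene of largest log2 fold change in each direction, and the 2 genes most like each tested member. Alternatives were DESeq2 1.42.0, RLE size factors, library totals, no filter, a minimum mean of 20 counts, a fit of 2 groups alone, the study's rule, a log2 fold change beyond 1, a prior count of 2, leaving out each mouse, a block for the replicate number, and 1 added in ratios. The replicate numbers come from the labels, and same-numbered mice are different animals. Groups of 3 were not tested for outlying samples. Results of some listed genes are not reported here.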

Additional observations from a re-analysis of the deposited data

How the results depend on the processing

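No call of the 6 members tested reversed direction under any alternative; of the pathway genes only the counts of calls were recomputed. The 5 member genes called with DSS became 3 with a mean of at least 20 counts, and the 5 called with EA against DSS became 8 without a filter, 3 with a mean of at least 20 counts and 2 by the study's rule; fewer or more genes were tested in the first 3 of these. Without 1 mouse these counts ranged from 5 to 6 with DSS and from 4 to 6 with EA, and stayed at 0 between DSS + EA and control. *Il10ra* with EA lost its call without DSS + EA mouse 1 (log2 -1.72) or mouse 2 (-1.82), and by the study's rule *Il10ra*, *Il17rc* and *Il17re* with EA were not called because their changes were under the minimum of 2.5. *Il10rb* was called with DSS and with EA by DESeq2 (adjusted p = 0.0430 and 0.0458) and without a filter (0.0387 and 0.0372, edgeR), and without DSS mouse 3 in both, and with DSS without DSS + EA mouse 1 (0.0385). In leave-one-out fits that left 2 mice in a group, the spread was pooled over all groups.

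The pathway genes called were 44 with DSS and 28 by the study's rule, 40 with EA against DSS and 20 by that rule, and 14 between DSS + EA and control. Without 1 mouse these counts ranged over 39 to 51, 32 to 51 and 7 to 18, the last with 8 without control mouse 1, 7 without control mouse 2 and 9 without DSS + EA mouse 3; the cause was not tested. Between DSS + EA and control, 457 genes of the whole table were called, 1147 with only the 2 groups in the fit, 697 with DESeq2, and 107 to 772 without 1 mouse.

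With the replicate number as a block, 5, 5 and 0 members and 42, 37 and 13 pathway genes were called, and no call of a member changed. Same-numbered mice of 2 groups deviated together by r of -0.16 to 0.105, so the number does not pair them. Log2 ratios of receptor pairs moved by less than the spread between mice when 1 was added to each count, and without 1 mouse *Il17rc* to *Il17ra* ranged from -5.48 to -5.28 with DSS and from 5.48 to 6.10 with EA, while the ratios of *Il20ra* to *Il20rb* with EA (-0.835 to 0.569) and of *Il22ra1* to *Il10rb* with DSS (-1.30 to 0.494) and with EA (-0.83 to 0.968) crossed 0. Depth limits *Il20ra*, *Il20rb*, *Il22ra1* and the ligands most.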

Other observations

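IL-10RB also serves the interferon lambdas, with IFNLR1 as its partner chain. *Ifnl3* had 0 reads in each control and DSS mouse and 1 to 6 in the DSS + EA mice, and *Ifnl2* had 0 to 1, 0 and 1 to 2. All DSS + EA mice thus had at least 1 read of each gene, at levels close to the floor of 3 counts. *Ifnlr1* had 4 to 7, 3 to 10 and 0 to 6 reads, with overlapping groups.

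Other receptors of the families had values of their own. *Il17rb*, the IL-25 receptor chain, had 3.94 ± 0.61 CPM in the control group, 0.391 ± 0.50 CPM with DSS and 1.84 ± 0.59 CPM with EA, where DSS was at 0.0921 times control (95% counting interval 0.0239 to 0.256; adjusted p = 0.00312, edgeR) and EA at 5.09 times DSS (1.66 to 20.8; adjusted p = 0.0356, edgeR). It thus had the order of *Il17rc* and *Il17re*. Reads were 9 to 15 in the control mice, 0 to 3 with DSS and 4 to 8 with EA. The gene passed the filter through the control mice alone, so that its difference from them was a condition of its being tested. Its ligand *Il25* had no more than 1 read in any mouse. *Il22ra2*, a soluble receptor that captures IL-22, had 3 to 9, 0 to 1 and 1 to 3 reads in the control, DSS and DSS + EA mice, at 0.0547 times control with DSS (95% counting interval 0.00130 to 0.352). *Il17rd* had 4 to 8, 9 to 14 and 2 to 5 reads.

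Among type 3 lymphocyte genes, 3 of 10 could be tested. *Il1r1*, the IL-1 receptor, rose by 3.36 with DSS and fell by 2.81 with EA on the log2 scale (adjusted p = 4.53e-05 and 0.000305, edgeR), and *Batf* rose by 2.65 with DSS. *Il23r*, *Il23a* and *Ccr6* had no more than 2 reads in any mouse.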
